A study of Mus musculus with 3 samples.

Results

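The genes described here act in fatty acid uptake and lipid storage: Cd36, Fabp4, Gpat3, Mogat1, Plin2, Plin4, Cidec, Cideb and Pparg. They are 9 of the 32285 features of a droplet single-cell RNA data set of mouse liver, and they were chosen by name with earlier results of these data known, so that their levels are a description and carry no test. Cells came from livers of male C57BL/6 mice aged 9 weeks that were all Ifih1-/-, without the MDA5 sensor of double-stranded RNA, and all carried Alb-Cre, a recombinase driven by the hepatocyte-specific albumin promoter. The groups differ in Adar1, the gene of an enzyme that edits double-stranded RNA: Adar1 flox/flox, Adar1 wt/flox and Adar1 wt/wt, with 1 library each, and the labels do not say how many animals each library holds. Livers were perfused with collagenase, and hepatocytes were enriched by a low-speed spin, red cell lysis and a Percoll step, so that the share of each cell type is partly set by the preparation. With 1 library per genotype no difference has a replicate check, and every interval below is a 95% interval for counting error only.

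The liver takes up fatty acids from the blood through membrane carriers, joins them to glycerol in steps that begin with glycerol-3-phosphate acyltransferases, and keeps the resulting triglyceride in cytoplasmic droplets coated by perilipins and CIDE proteins. PPARG is the nuclear receptor that drives this storage program in adipocytes. In hepatocytes its level is normally low, and it is known to be raised, with several of the genes below, in fatty liver.

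All 3 libraries held exactly 10000 barcodes, with 10756790 UMIs (unique molecular identifiers, each standing for 1 captured transcript) in flox/flox, 10067929 in wt/flox and 9744380 in wt/wt. The class of hepatocyte-like barcodes held 7811 barcodes in flox/flox, 7355 in wt/flox and 8264 in wt/wt, and was made of 8 clusters. All 12 hepatocyte markers were found in at least 50% of barcodes of each of these clusters, but also in T-like, B-like and other clusters, so that the markers alone do not set the class apart. Their median depth was 902 UMIs in flox/flox, 862 in wt/flox and 825 in wt/wt, and their mitochondrial share was 7.87% in flox/flox, 4.17% in wt/flox and 5.00% in wt/wt. Adar itself, at 35.1 counts per 1000000 UMIs of the class (CPM) in hepatocyte-like barcodes of flox/flox, 17.3 CPM in wt/flox and 10.3 CPM in wt/wt, had its top level where the flox/flox label would put its lowest. Adar was also highest in flox/flox in Kupffer-like barcodes, at 76.2 CPM against 38.7 CPM in wt/flox and 17.8 CPM in wt/wt. In endothelial-like barcodes it had 84.0 CPM in flox/flox, 24.1 CPM in wt/flox and 32.7 CPM in wt/wt. The high level in flox/flox was thus not confined to hepatocyte-like barcodes, and its cause was not tested. Reads from the 3' end check nothing if the deleted exons lie elsewhere, and the labels do not name those exons, so that all directions below rest on the labels of the libraries. Barcode sequences were shared by 32 pairs between flox/flox and wt/wt, 27 between flox/flox and wt/flox and 20 between wt/flox and wt/wt.

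The genes that differed most between the libraries were Cd36, Gpat3 and Plin4. The 250 bases before a RefSeq start site of each are shown so that this sequence can be set beside their levels. The windows are from RefSeq on build GRCm38.p6, written 5′ to 3′ along the strand of the gene, with the PPAR-type hexamer AGGTCA (either strand) in capitals. Cd36 lies on the minus strand, with its window at chr5:17835897-17836146. Gpat3 lies on the plus strand, at chr5:100845979-100846228, and Plin4 on the minus strand, at chr17:56109783-56110032. The Cd36 and Gpat3 windows lie inside the gene spans given below, so that they precede an internal start site and not the outermost one. Which start site hepatocytes use was not tested.
Cd36: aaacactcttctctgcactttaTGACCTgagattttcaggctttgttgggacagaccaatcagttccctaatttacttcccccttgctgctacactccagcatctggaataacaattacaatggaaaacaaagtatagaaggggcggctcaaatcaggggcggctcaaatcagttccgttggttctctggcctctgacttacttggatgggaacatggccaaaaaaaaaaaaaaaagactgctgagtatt
Gpat3: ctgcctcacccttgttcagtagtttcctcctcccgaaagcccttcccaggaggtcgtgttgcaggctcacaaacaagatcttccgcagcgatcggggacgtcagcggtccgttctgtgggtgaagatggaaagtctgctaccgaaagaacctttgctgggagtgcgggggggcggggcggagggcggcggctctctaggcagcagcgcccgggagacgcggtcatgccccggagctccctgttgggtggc
Plin4: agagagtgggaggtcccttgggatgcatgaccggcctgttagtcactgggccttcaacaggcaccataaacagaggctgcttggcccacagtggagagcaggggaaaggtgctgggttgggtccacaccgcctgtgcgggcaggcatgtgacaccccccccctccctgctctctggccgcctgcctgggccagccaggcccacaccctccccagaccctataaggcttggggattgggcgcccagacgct
The hexamer was present in the Cd36 window on the opposite strand, at 228 to 223 bases before the start site, and absent from the windows of Gpat3 and Plin4. RefSeq windows were found for 8 of the 9 genes, all but Fabp4, with 11 windows in all since some genes have several start sites. Of these 11 windows 4 held AGGTCA (1 of Plin2, 1 of Cd36 and 2 of Pparg), as did 14.0% of all 32851 windows in the table. The direct repeat of it (AGGTCA, any base, AGGTCA, on either strand), which contains the single hexamer, was in 0 of the 11 windows and in 0.0335% of all windows. The interferon response type motif (GAAA, any 2 bases, GAAA, on either strand) was in 0 of the 11 and in 2.98% of all. These matches describe the letters of the windows only.

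In hepatocyte-like barcodes, 3 genes stood highest in the flox/flox library: the uptake gene Cd36, the synthesis gene Gpat3 and the droplet coat gene Plin4. Plin2, the main droplet coat gene of hepatocytes, differed by less than 1.5-fold in each comparison, and Cideb was slightly lower in flox/flox than in both other libraries. Pparg was at its lowest in flox/flox. A gene with 20 or more UMIs in the 3 libraries together was counted as measured, which 8 of the 9 genes reached, all but Mogat1. Over wt/wt, 4 of the 8 measured genes were at least 1.5-fold higher in flox/flox (Cd36, Gpat3, Plin4 and Cidec), where 13.9% of the 11329 measured genes of the whole table were, and 1 of the 8 was at least 1.5-fold lower (Pparg), where 7.6% were. Over wt/flox, the same 4 were higher (13.1% of all measured genes) and 0 were lower (9.93%). In wt/flox over wt/wt, 1 was higher (Cidec; 9.97% of all) and 1 was lower (Plin4; 6.95% of all). The median log2 ratio of the 8 genes was 0.89 for flox/flox over wt/wt, beside 0.07 over all measured genes, and 0.24 for flox/flox over wt/flox, beside 0.03. For wt/flox over wt/wt it was 0.03, beside 0.04. Since the genes were chosen on these differences, the counts give no support to them.

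**Figure D1:**
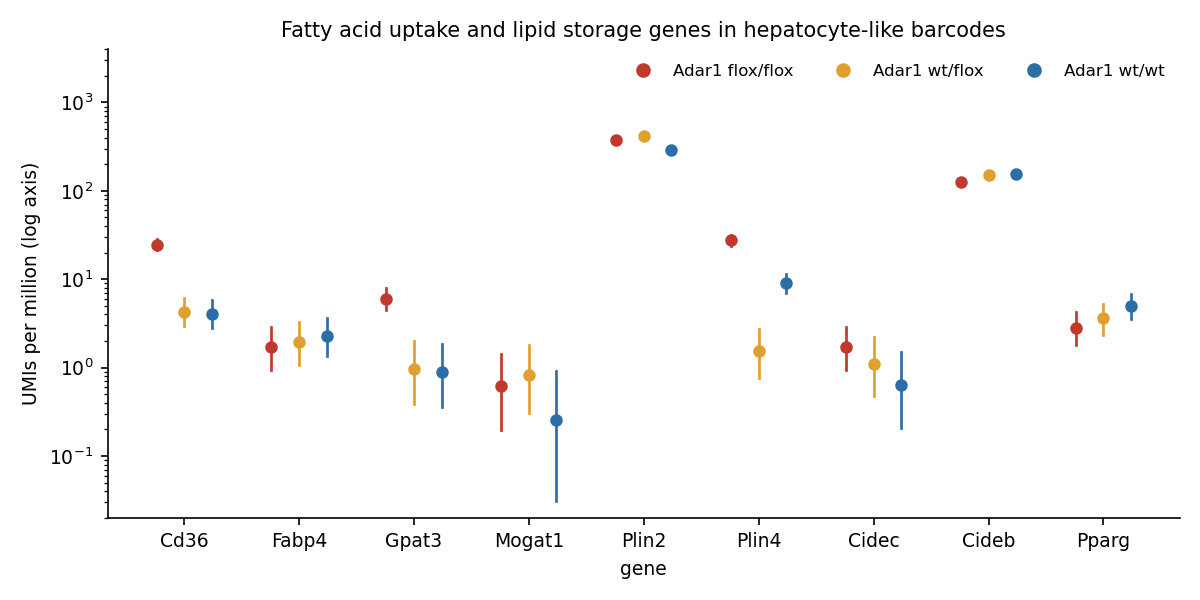
Levels of the 9 genes in hepatocyte-like barcodes in CPM on a log axis, with 1 point per library and lines for the 95% counting interval. Cd36, Gpat3 and Plin4 are highest in flox/flox, at 24.6, 6.01 and 27.5 CPM, and Plin4 is lowest in wt/flox, at 1.53 CPM.

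Cd36 (ENSMUSG00000002944; mm10 chromosome 5, 17781690 to 17888801, minus strand) encodes a membrane scavenger receptor that takes up long-chain fatty acids. It had 201 UMIs in flox/flox, 31 in wt/flox and 32 in wt/wt. That is 24.6 CPM (21.3 to 28.3) in flox/flox, 4.32 CPM (2.93 to 6.13) in wt/flox and 4.08 CPM (2.79 to 5.76) in wt/wt. The flox/flox library was high and the other two had overlapping intervals. The level in flox/flox was 6.03-fold that in wt/wt (log2 ratio 2.59, 2.05 to 3.18) and 5.71-fold that in wt/flox (2.51, 1.96 to 3.11), while wt/flox over wt/wt had a log2 ratio of 0.08 (-0.68 to 0.84). Of all genes measured, 53 had an equal or higher ratio over wt/wt, or 0.468%.

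Cd36 UMIs were spread thinly over barcodes. A Cd36 UMI was found in 2.45% of hepatocyte-like barcodes in flox/flox, 0.421% in wt/flox and 0.387% in wt/wt. After thinning each barcode to 1000 UMIs, which left out 4931 shallower barcodes in flox/flox, 5038 in wt/flox and 5890 in wt/wt, the shares were 2.57%, 0.561% and 0.463% in the same libraries. T cells should lack the gene, and T-like barcodes, with median depths of 966.5 UMIs in flox/flox, 962 in wt/flox and 988 in wt/wt, had shares of 0.853% in flox/flox, 0.791% in wt/flox and 0.308% in wt/wt. The T-like shares rest on 5 barcodes in flox/flox, 4 in wt/flox and 1 in wt/wt. The flox/flox share in hepatocyte-like barcodes was above the T-like share of its library, with separate intervals (2.11% to 2.81% against 0.278% to 1.98%). In wt/flox and wt/wt the intervals of both classes overlapped, so that the hepatocyte-like share could not be told apart from that of T-like barcodes. Free RNA of other classes, without the endothelial-like one, was estimated from specific markers. It would give 1.04 CPM of Cd36 in hepatocyte-like barcodes of flox/flox, 0.450 CPM in wt/flox and 0.621 CPM in wt/wt. These are 4.21%, 10.4% and 15.2% of the levels measured in flox/flox, wt/flox and wt/wt. No endothelial marker was 10-fold above every other class. Endothelial-like barcodes, which have the highest Cd36, are therefore not a source here, and their part was not tested. The levels by depth kept the same order of flox/flox over the others: below 1000 UMIs Cd36 was at 23.3 CPM in flox/flox, 3.36 CPM in wt/flox and 4.44 CPM in wt/wt, and from 1000 to below 2000 UMIs at 24.0 CPM in flox/flox, 5.06 CPM in wt/flox and 3.94 CPM in wt/wt.

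Markers of other liver cells that carry Cd36 were measured in the same hepatocyte-like barcodes. The 13 Kupffer markers, all seen in every library, summed to 137 CPM in flox/flox, 97.6 CPM in wt/flox and 79.6 CPM in wt/wt, and the 14 endothelial markers, also all seen, to 38.0 CPM in flox/flox, 33.8 CPM in wt/flox and 31.5 CPM in wt/wt. Stellate markers summed to 21.0 CPM in flox/flox, 24.2 CPM in wt/flox and 30.8 CPM in wt/wt. Monocyte markers summed to 29.0 CPM in flox/flox, 20.5 CPM in wt/flox and 14.8 CPM in wt/wt. Of the 9 vascular markers, 8 were seen in flox/flox, 7 in wt/flox and 5 in wt/wt, and they summed to 119 CPM in flox/flox, 3.76 CPM in wt/flox and 3.06 CPM in wt/wt. Nearly all of that sum in flox/flox was Ly6a, with 955 of 971 UMIs, a surface antigen gene also known to be induced by interferon. The adipocyte markers summed to 0.368 CPM in flox/flox, 0.557 CPM in wt/flox and 0.128 CPM in wt/wt, with Adipoq, Plin1, Lep and Cidea at 0 UMIs in all 3 libraries. A count of 0 UMIs in this class allows a level of up to 0.368 CPM in flox/flox, 0.418 CPM in wt/flox and 0.383 CPM in wt/wt, taken as 3 counts of the class total. The part of Kupffer RNA in the Cd36 difference was measured only through the free RNA estimate above. Endothelial RNA is not in that estimate, and its part was not tested. Doublets were not removed, and their part was not tested.

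Fabp4 (ENSMUSG00000062515; chromosome 3, 10204088 to 10208576, minus strand) encodes a cytoplasmic fatty acid carrier typical of adipocytes, capillary endothelium and macrophages. It was near the limit of detection in hepatocyte-like barcodes, with 14 UMIs (1.72 CPM) in flox/flox, 14 UMIs (1.95 CPM) in wt/flox and 18 UMIs (2.30 CPM) in wt/wt. The 3 intervals overlapped, and the log2 ratio of flox/flox over wt/wt was -0.42 (-1.54 to 0.67). The uptake gene and the intracellular carrier thus had ratios over wt/wt whose intervals did not overlap.

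Gpat3 (ENSMUSG00000029314; chromosome 5, 100845713 to 100899102, plus strand) encodes a glycerol-3-phosphate acyltransferase of the endoplasmic reticulum, which makes the first intermediate of triglyceride. It had 49 UMIs in flox/flox, 7 in wt/flox and 7 in wt/wt, or 6.01 CPM (4.44 to 7.94) in flox/flox, 0.975 CPM in wt/flox and 0.893 CPM in wt/wt. Its pattern was that of Cd36, high in flox/flox and equally low in the other libraries. Against wt/wt the log2 ratio was 2.75 (1.60 to 4.14), and against wt/flox 2.62 (1.47 to 4.01). The intervals are wide because of the few UMIs. A Gpat3 UMI was found in 0.627% of hepatocyte-like barcodes in flox/flox, 0.0952% in wt/flox and 0.0847% in wt/wt. Of the other enzymes of the same step, Gpam, the mitochondrial one, had 126 CPM in flox/flox, 152 CPM in wt/flox and 160.4 CPM in wt/wt. Gpat4 had 85.4 CPM in flox/flox, 65.0 CPM in wt/flox and 117 CPM in wt/wt. Both had ratios of flox/flox over wt/wt below 0 (log2 -0.35 for Gpam and -0.45 for Gpat4) and neither shared the pattern of Gpat3.

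Mogat1 (ENSMUSG00000012187; chromosome 1, 78510991 to 78538173, plus strand) encodes a monoacylglycerol acyltransferase, which makes diacylglycerol by a side route. With 5 UMIs in flox/flox, 6 in wt/flox and 2 in wt/wt, it was too rare to compare, and Mogat2 had 0 UMIs in all 3 libraries. The enzymes of the last step, Dgat1 and Dgat2, had log2 ratios of flox/flox over wt/wt of 0.27 and -0.13.

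Plin2 (ENSMUSG00000028494; chromosome 4, 86648386 to 86670060, minus strand) encodes the perilipin that coats droplets in hepatocytes and whose protein is stabilised by stored lipid. It had 373 CPM (360 to 387) in flox/flox, 413 CPM (398 to 428) in wt/flox and 293 CPM (281 to 305) in wt/wt, from 3047 UMIs in flox/flox, 2966 in wt/flox and 2296 in wt/wt. The wt/flox library was highest and wt/wt lowest, with 3 intervals apart from each other. The log2 ratio was 0.35 (0.27 to 0.43) for flox/flox over wt/wt, -0.15 (-0.22 to -0.07) for flox/flox over wt/flox and 0.50 (0.42 to 0.57) for wt/flox over wt/wt, so that Plin2 did not follow the number of floxed alleles. Plin2 was not clearly tied to Cd36 from barcode to barcode: in flox/flox, thinned to 1000 UMIs, it was found in 33.8% (23.2 to 45.7) of 74 barcodes with Cd36 and in 29.6% (27.9 to 31.3) of 2806 without.

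Plin4 (ENSMUSG00000002831; chromosome 17, 56100591 to 56109803, minus strand) encodes a perilipin best known from adipocytes and muscle. It had 224 UMIs in flox/flox, 11 in wt/flox and 71 in wt/wt. That is 27.5 CPM (24.0 to 31.3) in flox/flox, 1.53 CPM (0.765 to 2.74) in wt/flox and 9.06 CPM (7.08 to 11.4) in wt/wt. The 3 libraries were all apart, with wt/flox the lowest. The log2 ratio was 1.60 (1.21 to 2.01) for flox/flox against wt/wt and 4.16 (3.30 to 5.19) for flox/flox over wt/flox, and for wt/flox over wt/wt it was -2.56 (-3.63 to -1.64). A Plin4 UMI was found in 2.59% of hepatocyte-like barcodes in flox/flox, 0.150% in wt/flox and 0.835% in wt/wt, and in 0.512%, 0.395% and 0% of the T-like barcodes of flox/flox, wt/flox and wt/wt, where the 0% allows a share of up to 0.923%. Plin4 overlaps Hdgfl2 on the opposite strand, and the sources used here do not say whether counting used strand. Hdgfl2 itself was nearly equal, at 28.6 CPM in flox/flox, 26.7 CPM in wt/flox and 26.3 CPM in wt/wt.

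Plin5, the perilipin of oxidative tissues, shared the low wt/flox level of Plin4. It had 149 CPM in flox/flox, 35.9 CPM in wt/flox and 104 CPM in wt/wt, with log2 ratios of 0.52 (0.39 to 0.65) for flox/flox against wt/wt and 2.05 (1.86 to 2.25) for flox/flox over wt/flox. Plin3, the perilipin found in most tissues, had 36.0 CPM in flox/flox, 36.5 CPM in wt/flox and 38.2 CPM in wt/wt, with overlapping intervals. Within the family, Plin2 was thus highest in wt/flox, Plin4 and Plin5 were lowest there, and Plin3 was nearly level.

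Cidec (ENSMUSG00000030278; chromosome 6, 113424634 to 113435760, minus strand) and Cideb (ENSMUSG00000022219; chromosome 14, 55754050 to 55758458, minus strand) encode CIDE proteins, which sit on droplets: CIDEC fuses them into larger ones, and CIDEB, the main CIDE protein of normal liver, also acts in loading VLDL with lipid. Cidec had 14 UMIs (1.72 CPM) in flox/flox, 8 UMIs (1.11 CPM) in wt/flox and 5 UMIs (0.638 CPM) in wt/wt. Its log2 ratio of 1.43 for flox/flox over wt/wt had an interval that reached below 0 (-0.13 to 3.25), so that the difference was not detectable at this depth. Cideb had 126 CPM (118 to 134) in flox/flox, 153 CPM (144 to 162) in wt/flox and 156 CPM (147 to 165) in wt/wt. It was lowest in flox/flox and close to equal in the other libraries, with log2 ratios of -0.31 (-0.43 to -0.19) for flox/flox against wt/wt and -0.28 (-0.41 to -0.16) for flox/flox over wt/flox. Cideb overlaps Nop9 on the opposite strand, which had 23.7 CPM in flox/flox, 24.6 CPM in wt/flox and 27.1 CPM in wt/wt. Cidea, the third CIDE gene, had 0 UMIs in all 3 libraries.

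Pparg (ENSMUSG00000000440; chromosome 6, 115360951 to 115490399, plus strand) had 23 UMIs (2.82 CPM) in flox/flox, 26 UMIs (3.62 CPM) in wt/flox and 39 UMIs (4.98 CPM) in wt/wt. The flox/flox library was the lowest, with a log2 ratio over wt/wt of -0.82 whose interval ended just below 0 (-1.63 to -0.04), and -0.36 over wt/flox. Its partner receptor gene Rxra was close to level, at 148 CPM in flox/flox, 147 CPM in wt/flox and 165 CPM in wt/wt. Nr1h3, the LXR alpha gene, had 83.3 CPM in flox/flox, 108 CPM in wt/flox and 112 CPM in wt/wt. The transcript of the receptor and those of Cd36, Gpat3 and Plin4, known as its targets in adipocytes, thus had ratios of opposite sign in flox/flox over wt/wt.

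The levels were then followed through the 8 hepatocyte-like clusters, which were formed without the 9 genes and the genes of the pathway lists. The libraries filled different clusters: flox/flox barcodes lay mostly in cluster 2, led by Cyp2a4, Cdh1 and mitochondrial transcripts, with 2096 barcodes, and in cluster 3, led by interferon-induced genes, with 3032 barcodes. Barcodes of wt/flox lay mostly in clusters 1 and 4, with 2248 and 2609. The largest group of wt/wt barcodes lay in cluster 0, with 3289 of 8264, and the rest were spread over the other clusters. Cd36 was higher in flox/flox than in wt/wt in 8 of 8 clusters, with separate intervals in 4, and higher than in wt/flox in 7 of 7 clusters with at least 100 barcodes in both libraries, with separate intervals in 2. In cluster 10, however, the levels were nearly equal, at 13.32 CPM (8 UMIs) in flox/flox and 13.27 CPM (2 UMIs) in wt/wt. Clusters 0 and 4 held only 2 Cd36 UMIs each in flox/flox. The level of Cd36 was greatest in cluster 2, at 43.8 CPM (35.4 to 53.5) in flox/flox, against 4.83 CPM in wt/flox and 7.21 CPM in wt/wt. Cluster 3 had 19.1 CPM in flox/flox and 0 UMIs in the 138 barcodes of wt/flox and the 124 of wt/wt, whose intervals reach up to 30.0 CPM in wt/flox and 33.2 CPM in wt/wt, so that no difference was detectable in that cluster. Within flox/flox, Cd36 was therefore higher in cluster 2 than in the cluster led by interferon-induced genes, with separate intervals.

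Plin4 was concentrated in cluster 5, a cluster led by Neat1 and other noncoding transcripts and present in all 3 libraries, with 921 barcodes in flox/flox, 915 in wt/flox and 1137 in wt/wt. There Plin4 had 152 CPM (130 to 177) in flox/flox, 6.05 CPM (2.22 to 13.2) in wt/flox and 45.2 CPM (33.9 to 59.0) in wt/wt. Cluster 5 held 166 of 224 Plin4 UMIs (74.1%) in flox/flox, 6 of 11 (54.5%) in wt/flox and 54 of 71 (76.1%) in wt/wt, but only 13.4%, 13.8% and 15.3% of all hepatocyte-like UMIs in flox/flox, wt/flox and wt/wt. Outside cluster 5, Plin4 was at 8.21 CPM in flox/flox, 0.808 CPM in wt/flox and 2.56 CPM in wt/wt, and the order of the libraries was the same. The log2 ratio outside it was 1.68 (0.88 to 2.55) for flox/flox against wt/wt and 3.35 (2.04 to 5.02) for flox/flox over wt/flox. With the barcodes of the upper 25% of Malat1 share, a nuclear noncoding transcript, left out, the log2 ratios were 3.15 for flox/flox over wt/flox and -1.49 for wt/flox over wt/wt. Without cluster 5, Cd36 had log2 ratios of 2.66 against wt/wt and 2.51 over wt/flox, and Gpat3 of 2.80 and 2.43 over the same libraries. Plin2 was higher in flox/flox than in wt/wt in 8 of 8 clusters (separate intervals in 5), and Cideb was lower in 8 of 8 (separate in 2). Against wt/flox, Plin2 was higher in flox/flox in 5 of 7 clusters, with separate intervals in 0, although its level over all hepatocyte-like barcodes was lower. Pparg, lowest in flox/flox over all hepatocyte-like barcodes, was higher there than in wt/wt in 5 of 8 clusters, with separate intervals in 0, so that its direction was not the same from cluster to cluster. Gpat3 was higher in flox/flox than in wt/wt in 6 of 8 clusters and than in wt/flox in 5 of 7, with few UMIs in each.

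**Figure D2:**
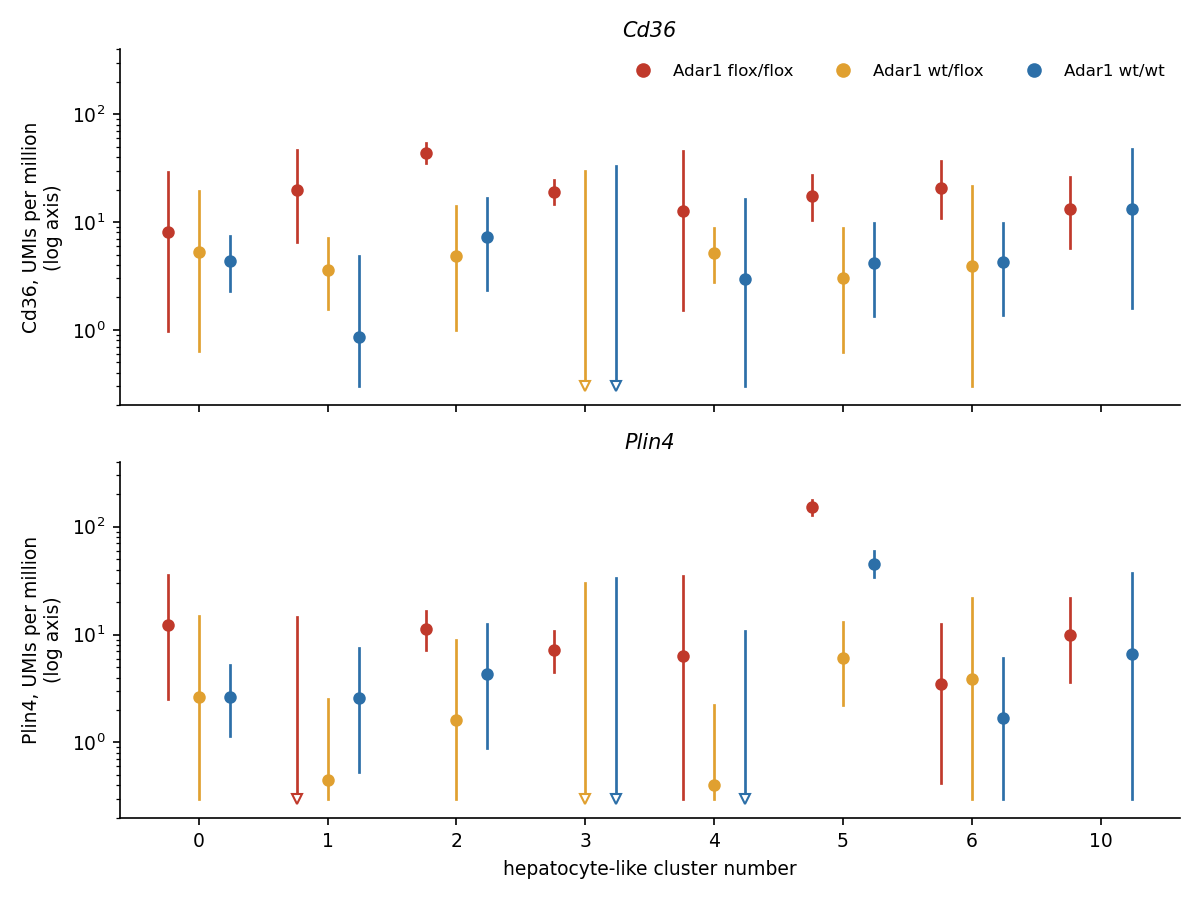
Cd36 (top) and Plin4 (bottom) in each hepatocyte-like cluster in CPM on a log axis, with 1 point per library, lines for the 95% counting interval and open triangles for 0 UMIs. Cd36 is highest in cluster 2 of flox/flox, at 43.8 CPM, and Plin4 in cluster 5 of flox/flox, at 152 CPM. The wt/flox point of cluster 10, under 100 barcodes, is not drawn.

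Position in the liver lobule was approximated by a score of 11 pericentral against 9 periportal markers, with the hepatocyte-like barcodes of each library split into 3 equal zones. As a check, the pericentral gene Cyp2e1 had 378 CPM in the periportal zone of flox/flox, 1467 CPM in its middle zone and 3145 CPM in its pericentral zone, as the score sets it to. In flox/flox the genes with the largest excess were higher towards the periportal end. Cd36 had 33.3 CPM in the periportal zone, 24.6 CPM in the middle and 15.5 CPM in the pericentral zone, a periportal over pericentral log2 ratio of 1.10 (0.56 to 1.66). Gpat3 had 10.3 CPM in the periportal zone, 5.31 CPM in the middle and 2.22 CPM in the pericentral zone (2.21, 0.92 to 3.77). Plin4 had 38.7 CPM in the periportal zone, 24.3 CPM in the middle and 18.9 CPM in the pericentral zone (1.03, 0.54 to 1.54). Plin2 was level across zones in flox/flox (-0.07, -0.20 to 0.06). In wt/flox the Cd36 ratio was -0.48 (-2.00 to 0.96) and in wt/wt 0.43 (-0.84 to 1.76), both from few UMIs, so that a difference in zonation between libraries was not detectable at this depth. The Plin4 ratio was -0.18 (-1.08 to 0.72) in wt/wt and 0.98 (-0.48 to 8.08) in wt/flox, with intervals that overlapped that of flox/flox. Cd36 was higher in flox/flox than in wt/wt in every zone, by log2 2.68 in the periportal zone, 2.98 in the middle and 2.01 in the pericentral zone. Since each library was split by its own scores, a zone need not be the same position in different libraries. Cyp2e1 in the periportal zone had 378 CPM in flox/flox and 855 CPM in wt/wt.

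**Figure D3:**
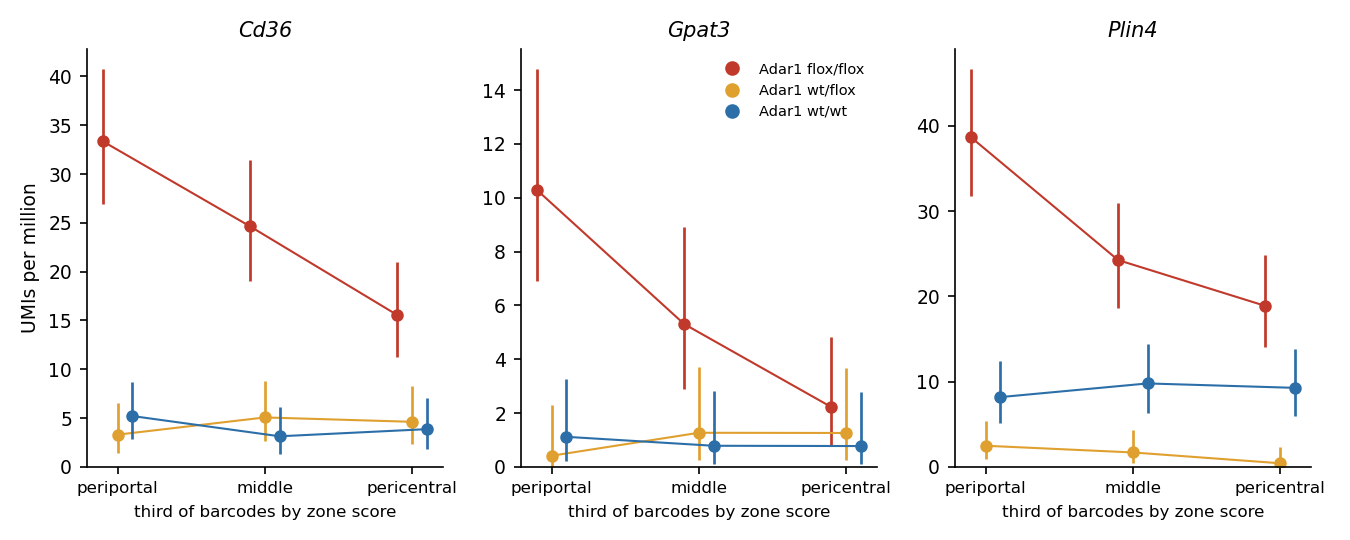
Levels by lobular zone in hepatocyte-like barcodes, in CPM on a linear axis, with 1 colour per library and lines for the 95% counting interval. In flox/flox Cd36 falls along the axis, with 33.3 CPM in the periportal and 15.5 CPM in the pericentral zone.

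Kupffer cells, the resident macrophages of the liver, also differed in Cd36. The Kupffer-like class held 354 barcodes in flox/flox, 304 in wt/flox and 201 in wt/wt, and 4 of the 9 genes were measured in it. Cd36 had 168 CPM (132 to 211; 75 UMIs) in flox/flox, 94.0 CPM (34 UMIs) in wt/flox and 75.8 CPM (44.1 to 121; 17 UMIs) in wt/wt. The flox/flox library was again highest, with a log2 ratio of 1.15 (0.38 to 2.00) against wt/wt and 0.84 (0.24 to 1.47) over wt/flox, smaller than in hepatocyte-like barcodes. Free RNA of other classes, again without the endothelial-like one, would give 26.0 CPM in flox/flox, 3.95 CPM in wt/flox and 4.08 CPM in wt/wt. Of the 26.0 CPM, 13.1 CPM came from monocyte or macrophage-like RNA, estimated from the single marker F13a1. The endothelial markers summed to 542 CPM in flox/flox, 484 CPM in wt/flox and 472.5 CPM in wt/wt. The part of endothelial RNA was not tested. Markers of some other cells moved with Cd36. The monocyte or macrophage list, with 10 of 11 markers seen in flox/flox, 10 in wt/flox and 8 in wt/wt, summed to 3574 CPM in flox/flox, 2253 CPM in wt/flox and 2006 CPM in wt/wt, with Chil3 at 0 in each. The vascular list, with 5 of 9 markers seen in flox/flox, 6 in wt/flox and 3 in wt/wt, summed to 383 CPM in flox/flox, 96.8 CPM in wt/flox and 26.7 CPM in wt/wt. Most of that sum was Ly6a, at 365 CPM in flox/flox, 80.2 CPM in wt/flox and 17.8 CPM in wt/wt. With the estimated RNA of other classes subtracted, endothelial RNA left in, the Cd36 ratio of flox/flox to wt/wt was log2 0.99. This subtraction lowered the Cd36 level only. The class totals still held the RNA of other classes, with hepatocyte RNA estimated at 40.2% in flox/flox and 50.0% in wt/wt. Fabp4 had 13 UMIs in flox/flox, 6 in wt/flox and 1 in wt/wt. The 13 UMIs lay in 9 barcodes, with up to 5 UMIs in 1 of them, and the interval of the log2 ratio over wt/wt, 1.12 with the single UMI set to 3, reached below 0 (-0.03 to 8.12).

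Cideb in Kupffer-like barcodes was close to the level estimated from RNA of other classes, mainly of hepatocytes, and Plin2 was above its own estimate. The estimates leave out endothelial RNA. Hepatocyte RNA was estimated to make up 40.2% of the UMIs of Kupffer-like barcodes in flox/flox, 46.6% in wt/flox and 50.0% in wt/wt. Cideb had 56.0 CPM in flox/flox, 74.6 CPM in wt/flox and 93.6 CPM in wt/wt, beside 60.2 CPM, 76.2 CPM and 81.6 CPM estimated from other classes in flox/flox, wt/flox and wt/wt. Plin2 had 309 CPM in flox/flox, 285 CPM in wt/flox and 223 CPM in wt/wt, beside an estimate of 217 CPM, 211 CPM and 157 CPM in flox/flox, wt/flox and wt/wt. The estimate for Plin2 lay below the counting interval of the measured level in each library. Since it holds no endothelial RNA, it cannot show whether Plin2 exceeds the RNA of all other classes. Of the 4 measured genes, 2 were at least 1.5-fold higher in flox/flox than in wt/wt (Cd36 and Fabp4; 22.4% of the 6739 genes measured in this class) and 1 was lower (Cideb; 13.5%).

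Endothelial-like barcodes, 227 in flox/flox, 499 in wt/flox and 471 in wt/wt, had the highest Cd36 of all classes. Cd36 had 608 CPM (515 to 713) in flox/flox, 423 CPM in wt/flox and 438 CPM in wt/wt. The flox/flox library was highest, with a log2 ratio of 0.47 (0.17 to 0.77) against wt/wt and 0.52 (0.22 to 0.83) over wt/flox, both under 1.5-fold, and wt/flox over wt/wt had -0.05. The make-up of the class differed as well. Kupffer markers, 13 of 13 seen in each library, summed to 2488 CPM in flox/flox, 882 CPM in wt/flox and 1274 CPM in wt/wt. Monocyte or macrophage markers, 7 of 11 seen in flox/flox, 7 in wt/flox and 6 in wt/wt, summed to 560 CPM in flox/flox, 137 CPM in wt/flox and 219 CPM in wt/wt, with Itgam and Ms4a4c at 0 in each. Vascular markers, 9 of 9 seen in each, summed to 896 CPM in flox/flox, 464 CPM in wt/flox and 304 CPM in wt/wt, of which Ly6a made up 644 CPM in flox/flox, 221 CPM in wt/flox and 65.3 CPM in wt/wt. The 14 endothelial markers were nearly level, at 9520.5 CPM in flox/flox, 9646 CPM in wt/flox and 9562 CPM in wt/wt. With the estimated RNA of other classes subtracted from Cd36, but not from the class totals, the ratio of flox/flox to wt/wt was log2 0.38. The part of the vascular markers was not tested. Fabp4 had 160 CPM (114 to 218) in flox/flox, 130 CPM (101 to 164) in wt/flox and 263 CPM (221 to 311) in wt/wt. Here wt/wt was highest: the log2 ratio was -0.72 (-1.26 to -0.20) for flox/flox against wt/wt and -1.02 (-1.46 to -0.59) for wt/flox over wt/wt, and flox/flox over wt/flox had 0.30 (-0.30 to 0.88). Of the 4 measured genes 0 were at least 1.5-fold higher in flox/flox than in wt/wt (16.9% of the 7747 genes measured in this class) and 1 was lower (Fabp4; 16.8%).

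Among the other classes, stellate or fibroblast-like barcodes had 271 CPM of Cd36 (186 to 380) in flox/flox, 104 CPM (61.9 to 165) in wt/flox and 185 CPM (132 to 251) in wt/wt, with flox/flox apart from wt/flox only. Monocyte or macrophage-like barcodes had 60.2 CPM in flox/flox, 46.8 CPM in wt/flox and 36.1 CPM in wt/wt, and their Fabp4 had 16 UMIs in flox/flox, 3 in wt/flox and 1 in wt/wt. Across the classes of wt/wt, Cd36 was ordered endothelial-like, stellate or fibroblast-like, Kupffer-like and monocyte or macrophage-like, with hepatocyte-like and T-like barcodes at the low end. The intervals of the first 3 were apart, and those of neighbours after Kupffer-like barcodes overlapped. Gpat3, Plin4, Mogat1, Cidec and Pparg had at most 4 UMIs per library in every class outside the hepatocyte-like one.

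**Figure D4:**
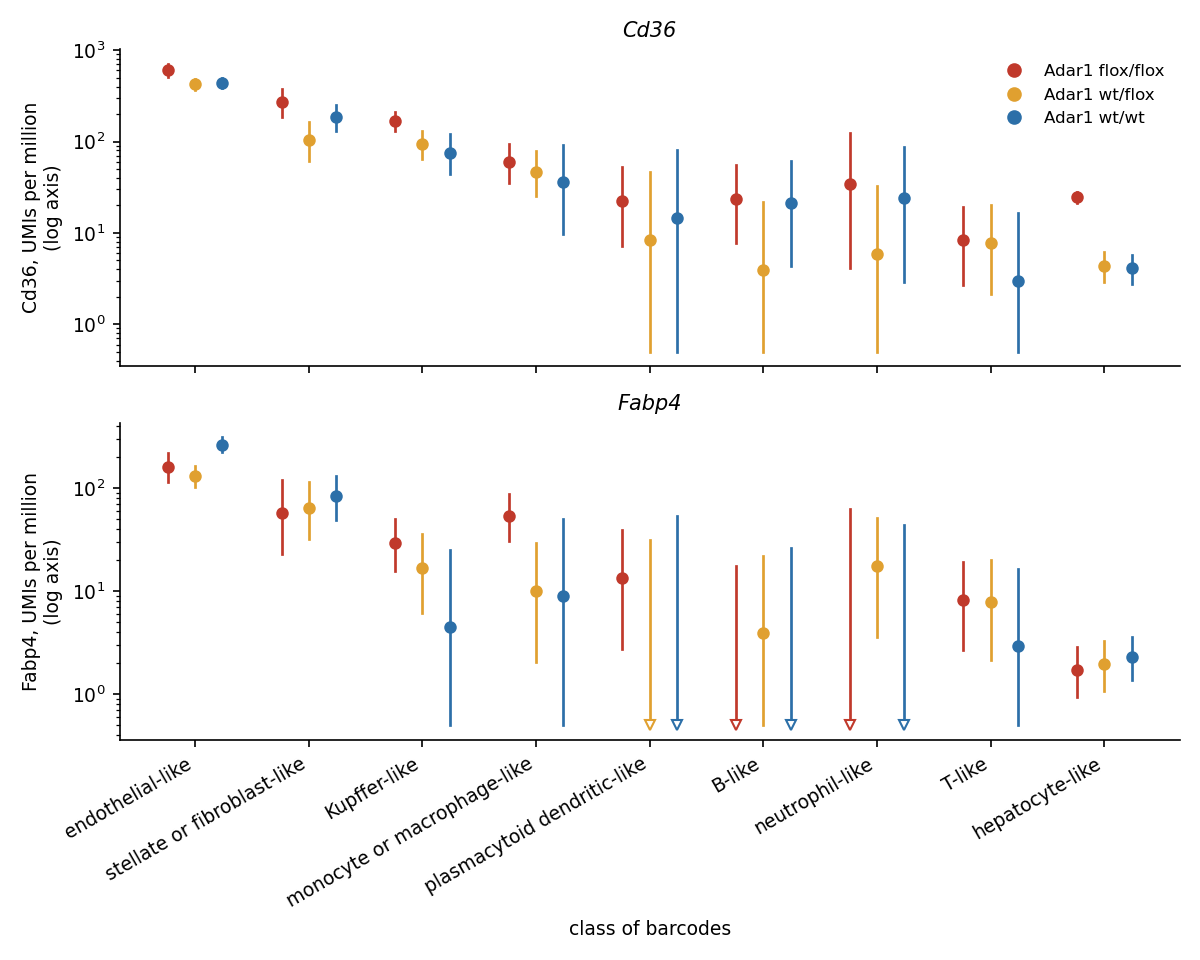
Cd36 (top) and Fabp4 (bottom) by class and library in CPM on a log axis, with lines for the 95% counting interval and open triangles for 0 UMIs. Endothelial-like barcodes are highest for both genes, and hepatocyte-like Cd36 is 24.6 CPM in flox/flox against 4.32 CPM in wt/flox and 4.08 CPM in wt/wt.

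The genes with a pattern most like that of a member were taken by Pearson correlation of log2(CPM + 1) over 27 points, 9 classes in each of 3 libraries, among 11864 genes. The points of a library share its preparation, and those of a class its free RNA. For Cd36 they were Qk (r = 0.931), Stab1 (0.925) and Dusp3 (0.908), for Fabp4 Crtap (0.933), Arrb1 (0.896) and Lipo3 (0.878), and for Cideb Hibadh (0.855), Fxyd1 (0.852) and Fdx1 (0.845). For Plin2 the closest was Aldh1a1 (0.788), and for Gpat3 no gene was above 0.683. These describe likeness over cell classes and not over genotypes.

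The rest of the pathway was described through 8 lists, counted here without the 9 genes themselves. The list counts stand beside the 11329 measured genes of the class. Of these, 13.9% were at least 1.5-fold higher and 7.6% lower in flox/flox over wt/wt, with a median log2 ratio of 0.07. Against wt/flox the shares were 13.1% and 9.93%, with a median of 0.03. Fatty acid uptake and activation had 15 other measured genes, of which 0 were at least 1.5-fold higher and 3 lower in flox/flox over wt/wt (median log2 ratio -0.21). Fabp5, a cytoplasmic carrier, was the lowest of them, at 222 CPM in flox/flox, 302 CPM in wt/flox and 581 CPM in wt/wt (-1.39, -1.47 to -1.31). The main liver carrier Fabp1 had 11426 CPM in flox/flox, 18115 CPM in wt/flox and 13259 CPM in wt/wt. The fatty acid transporters Slc27a2 and Slc27a5 had log2 ratios of flox/flox over wt/wt of 0.06 and -0.34. The excess of Cd36 was thus not shared by any other measured uptake gene at 1.5-fold over wt/wt.

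The list of lipoprotein lipase and its regulators had 11 measured genes, of which 2 were higher and 2 lower over wt/wt (median -0.06). Lipg, endothelial lipase, had 33.0 CPM in flox/flox, 9.33 CPM in wt/flox and 7.91 CPM in wt/wt (log2 ratio 2.06, 1.66 to 2.48). Lpl, lipoprotein lipase, had 7.72 CPM in flox/flox, 5.85 CPM in wt/flox and 18.0 CPM in wt/wt (-1.22). Glycerolipid synthesis had 12 other measured genes, of which 1 was higher and 0 lower (median -0.11). The higher one was Lpin1, a phosphatidate phosphatase, named after its values were seen: it had 1497 CPM in flox/flox, 151 CPM in wt/flox and 742 CPM in wt/wt.

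Of 12 other droplet protein genes measured, 2 were higher and 1 lower in flox/flox over wt/wt (median 0.04). G0s2, an inhibitor of the lipase ATGL, was the highest, at 161 CPM in flox/flox, 83.0 CPM in wt/flox and 18.0 CPM in wt/wt, with log2 ratios of 3.16 (2.91 to 3.42) against wt/wt and 0.96 over wt/flox. Its 3 levels stood in the order of the number of floxed alleles. Fitm1, a protein of droplet budding, was the lowest and had the opposite order, at 17.9 CPM in flox/flox, 34.0 CPM in wt/flox and 58.1 CPM in wt/wt. In the lipolysis list, 2 of 12 genes were higher and 0 lower (median 0.23). G0s2 is in it too, and Abhd5, the activator of ATGL, was lowest, at 25.9 CPM in flox/flox, 42.2 CPM in wt/flox and 35.2 CPM in wt/wt (log2 ratio -0.45 over wt/wt).

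VLDL assembly and export had 8 other measured genes, of which 2 were higher and 0 lower over wt/wt (median 0.33). Mttp, which loads lipid onto apolipoprotein B, was the highest, at 114 CPM in flox/flox, 84.4 CPM in wt/flox and 67.1 CPM in wt/wt. Of 16 partner nuclear factors of PPARG, 0 were higher and 1 was lower over wt/wt (median -0.10). The lower one was Ppard, the gene of PPAR delta, at 3.92 CPM in flox/flox, 13.6 CPM in wt/flox and 10.2 CPM in wt/wt. Over wt/flox 7 of the 16 were higher (13.1% of all measured genes) and 2 lower (9.93%). The coactivator gene Ppargc1a led the higher ones, with 88.9 CPM in flox/flox, 20.5 CPM in wt/flox and 59.6 CPM in wt/wt. No other list had more than 3 higher genes over wt/flox. In wt/flox over wt/wt, 5 of the 16 were lower (6.95% of all) and 0 higher (9.97%). The 5 were Cebpb, Cebpd, Klf15, Ppargc1a and Ppargc1b, all among the 7, so that the count over wt/flox rests partly on low levels in the wt/flox library. Of 8 other PPARG target genes known from adipocytes, 2 were higher against wt/wt and 1 was lower (median 0.13).

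A low level in wt/flox was shared by Plin4 with genes of several lists. Against wt/wt, the log2 ratio of wt/flox was -2.56 for Plin4, -2.30 for Lpin1, -1.76 for Angptl4 (an inhibitor of lipoprotein lipase), -1.54 for Ppargc1a and -1.54 for Plin5. These genes were picked for this after their values were seen. A difference of 1 library from the others cannot be told apart from the genotype here, so that the comparison of flox/flox with wt/flox for these genes rests as much on the wt/flox library as on flox/flox.

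**Figure D5:**
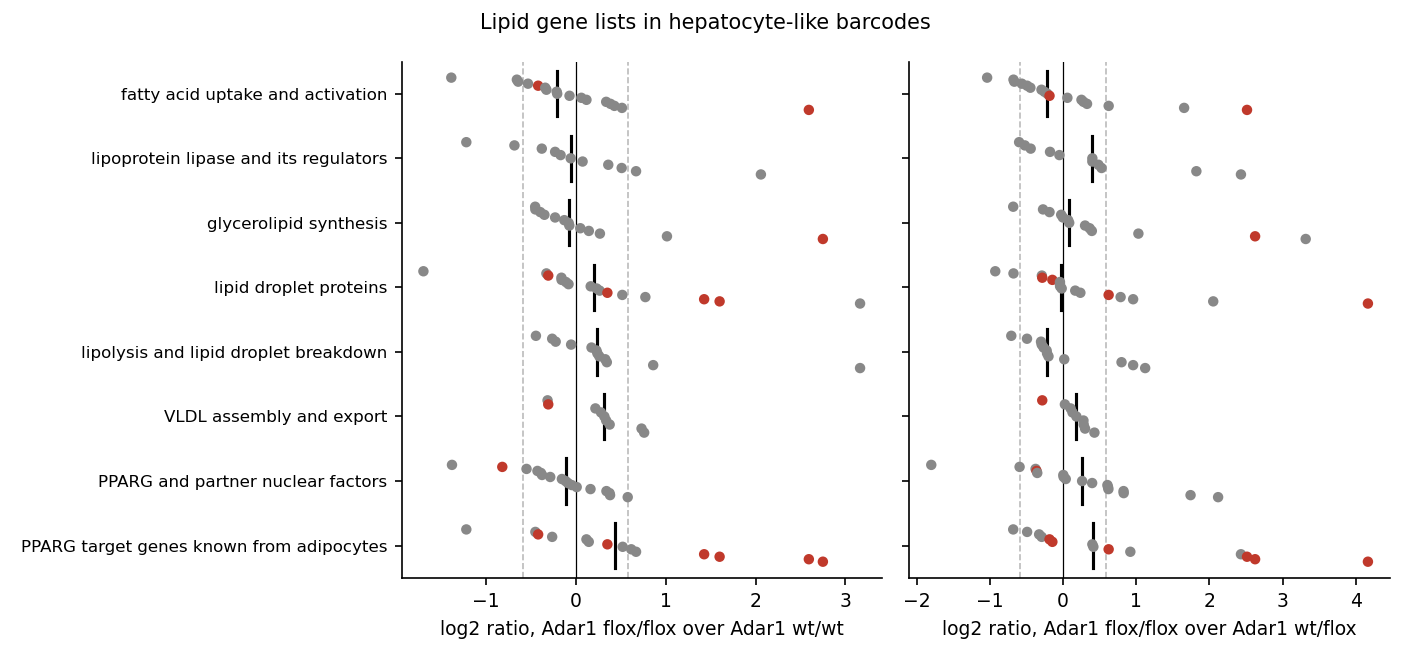
Log2 ratios in hepatocyte-like barcodes for the measured genes of 8 lists, flox/flox over wt/wt (left) and over wt/flox (right). Red points are members of the 9 genes, grey points the other genes, black bars the list medians with all genes and dashed lines 1.5-fold; Cd36 stands at 2.59 and 2.51 in the uptake list, where the median is -0.21 in both comparisons.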

How the data were processed

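Liver cells of 3 libraries were profiled with the 10x Genomics 3' kit. The authors deposited whole-number UMI counts for each gene in each barcode, written by Cell Ranger 6.1.1 per the file headers. The submitters' processing notes also name mm10 and Seurat. Use of strand in counting is not given in the sources used here. Barcodes were assigned to libraries by the suffix that the labels give.

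Barcodes were kept from 500 UMIs and 250 genes upwards, with mitochondrial shares up to 40% (9772 in flox/flox, 9920 in wt/flox and 9878 in wt/wt). They were clustered in scanpy 1.11.5 (Python 3.11.15) with 2000 variable genes, without the 9 genes and the list genes, 30 components, 15 neighbours and Leiden resolution 1, without integration of libraries. Doublets were not removed. Clusters were named X-like from marker lists. A cluster got the name of a class with at least 3 markers 4-fold above other barcodes and detected in 5% of its barcodes. A marker of the class also had to be among the 10 leading genes of the cluster. Hepatocyte-like clusters were the remainder, where no other class had 3 such markers or a marker among the 10 leading genes. At least 3 hepatocyte markers also had to be found in 50% of their barcodes. Hepatocyte-like barcodes cannot be told apart from droplets of free hepatocyte RNA.

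Counts were summed per class and library and given as CPM of the class total. Log2 ratios have exact conditional binomial intervals, levels exact Poisson and shares exact Clopper-Pearson intervals. In ratios, counts under 3 were set to 3. Free RNA was estimated from markers at least 10-fold above every other class, except for hepatocytes, where all 12 markers were kept. No endothelial marker met the rule, so endothelial RNA was not a source. Steps that compute ratios were tested on simulated data. The 9 genes, the lists and the rule for named genes (from each list the highest and the lowest ratio of flox/flox over wt/wt, and genes of the same step as one of the 9) were chosen with earlier results of these data known. With 1 library per genotype no test was run. Alternatives covered depth, mitochondrial share, scaling, class assignment, clustering genes, free RNA, the UMI minimum, Malat1-rich barcodes and shared barcodes.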

Additional observations from a re-analysis of the deposited data

How the results depend on the processing

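In hepatocyte-like barcodes, the median of the genes in flox/flox over wt/wt ranged from 0.51 to 0.92 under the alternatives. Over wt/flox it ranged from 0.06 to 1.32, except with no UMI minimum per gene, where it was -0.15. Of single gene values under alternatives, 285 stayed within their counting interval, 12 moved further and 3 reversed from a difference of at least 1.5-fold. Ratios under 1.5-fold also changed sign for Fabp4, Pparg, Plin2, Cideb and Gpat3, among them Pparg over wt/flox at 1000 UMIs (0.44). Cideb in endothelial-like barcodes over wt/wt had 1.06 with other-class RNA subtracted, which is not a Cideb difference. The estimate, 78.8 CPM in flox/flox and 95.85 CPM in wt/wt, exceeded the measured 64.0 CPM and 73.0 CPM. Both counts were thus set to 3, and the value reflects only the class totals. Cd36 in flox/flox over wt/wt ranged from 2.48 to 2.87, Gpat3 from 2.22 to 3.01 and Plin4 from 1.5 to 1.66 across all alternatives but the minimum of 2000 UMIs. That minimum left 348 barcodes in flox/flox, 102 in wt/flox and 117 in wt/wt, with 3 genes measured. There 1 gene was at least 1.5-fold higher in flox/flox over wt/wt, against 3 to 5 under the others, and 1 over wt/flox, against 3 to 4, and 0 in wt/flox over wt/wt. Cd36 then had 30 UMIs in flox/flox and 0 in wt/wt. The count for wt/flox over wt/wt was 2 with no UMI minimum per gene and 0 without the upper 25% of Malat1 share. In Kupffer-like barcodes the count was 1 in place of 2 at 1000 UMIs, with lipid genes kept in the clustering and with other-class RNA subtracted. In endothelial-like barcodes it was 1 in place of 0 at 1000 UMIs, with other-class RNA subtracted and without the Malat1-rich barcodes, and 2 with no minimum. The 1 with other-class RNA subtracted was the Cideb value set by the floor. The 3 reversed values were Cidec over wt/flox at 2000 UMIs (-1.88) and Fabp4 in Kupffer-like barcodes over wt/wt with classes from marker UMIs (-1.48) or lipid genes kept in the clustering (-0.046). Fewer UMIs enter at 2000 UMIs. For the rest, apart from the Cideb value set by the floor, the cause was not tested. Leaving out barcodes shared between libraries was chosen after seeing the data. No value could be had at 2000 UMIs for Kupffer-like and endothelial-like barcodes, with under 50 barcodes. No paired analysis was possible because each genotype has 1 library. Depth limits Mogat1, Cidec, Pparg and Fabp4 in hepatocyte-like barcodes most.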
